A study of Mus musculus with 15 samples.

Results

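The comparison set both orchiectomized groups of mice against the intact control mice, to describe the part of the response to orchiectomy that dihydrotestosterone (DHT) left in place. All 15 libraries of the study entered it, each the RNA-Seq of 1 whole aorta. The mice were male C57BL/6 mice aged 10 months, and every mouse, controls included, received aldosterone at 200 µg/kg per day by minipump with 0.9% NaCl and 0.2% KCl in the drinking water (Aldo-salt) for 7 days. The control group (5 libraries) had a sham operation, the orchiectomized group (5 libraries) had an orchiectomy, and the DHT group (5 libraries) had an orchiectomy and a DHT pellet. Operated mice had 2 weeks of recovery before Aldo-salt. The means of both orchiectomized groups had equal weight, so the 10 libraries of these groups were compared with 5 control libraries. No mice without Aldo-salt were analysed here, and DHT replaced 1 androgen rather than the testis, so the comparison does not describe an untreated aorta.

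DHT is made from testosterone, is a potent androgen and, unlike testosterone, is not converted to estrogen by aromatase. The testis also makes testosterone itself, estradiol and inhibin, none of which a DHT pellet supplies. Several of the genes below belong to the circadian clock, a transcriptional loop that runs in nearly every cell, including smooth muscle and endothelium of the aorta. In this loop ARNTL (BMAL1) and CLOCK bind E-box elements and activate the *Per*, *Cry*, *Nr1d*, *Dbp* and *Tef* genes. PER and CRY proteins then block ARNTL and CLOCK, the NR1D proteins repress *Arntl*, and DBP and TEF activate genes with D-box elements. In a cycling tissue, *Dbp* and *Arntl* peak at nearly opposite times of day. The mice were kept on a light-dark cycle, and the sources used here do not give the time of day at which the aortas were taken, so the time of harvest and the operation cannot be told apart for any clock gene.

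Each library held between 8268957 and 13816864 gene reads, and 14121 of 24982 gene symbols passed the filter on low counts. Smooth muscle markers were abundant in every library, with *Acta2* (smooth muscle actin) between 3684 and 8067 CPM (gene reads scaled to a common library size) and *Myh11* (smooth muscle myosin) between 2154 and 7227 CPM. Orchiectomized replicate 2 stood apart from the others. It lay at 95.4 on the first principal component, where the next library lay at 27.2, and it held *Ltf* (lactoferrin) at 1116 CPM against at most 4.20 CPM elsewhere. Without it, 104 genes were higher and 108 lower in the comparison below. The tissue is a mixture of cells, and fewer cells of a type and less RNA per cell cannot be told apart in these libraries.

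In the pooled comparison, 95 genes were higher and 102 lower in the orchiectomized groups than in the control group at an unadjusted P value under 0.01 in edgeR's quasi-likelihood test, the threshold of the study. These were 0.673% and 0.722% of the genes tested, or 1.40% together. When no gene differs, a threshold of 0.01 by itself calls a share of about 0.01, so many of these calls can arise without a difference. With Benjamini-Hochberg adjustment over all genes, 0 genes (0%) stayed under 0.05 and the lowest value reached was 0.128. Unadjusted, 1069 genes (7.57%) fell under 0.05. DESeq2 gave 21 genes an adjusted P value under 0.05, 14 higher and 7 lower. Each gene called below is therefore a call at the unadjusted threshold, also where only an SE is given beside its difference. For *Naa30* and *Ide*, 2 of the leading genes, the adjusted P values were 0.452 and 0.643 in edgeR. The counts also depended on single libraries, with 41 higher and 56 lower genes without control replicate 5, against 117 and 339 without control replicate 4 and 111 and 324 without DHT replicate 4. From the same fit, 3.22% of genes were called between orchiectomized and control mice, 3.53% between DHT-treated and control mice, and 9.72% between the DHT and the orchiectomized group. The first 2 of these comparisons share the control libraries.

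A call in the pooled comparison can come from 1 group alone. A called gene was therefore counted as shared when the DHT-treated and the untreated orchiectomized group differed from each other by no more than their joint log2 difference from control, so that each group kept at least 0.5 of that difference. This held for 144 of the 197 called genes (73.1%), and for 36.5% of all genes tested. Called genes have large pooled differences and the definition is set against that difference, so the higher share follows from the choice of genes. The shared genes were 75 higher genes (0.531% of genes tested) and 69 lower genes (0.489%). The filter on low counts asked for about 0.915 CPM in at least 5 libraries. Of the 75 genes, 11 reached this level in fewer than 5 controls, so they needed libraries of the groups where they were high to be tested. Some of these, such as *Rhebl1*, reached it in 4 controls, and others, such as *S100a8*, in 0. The higher genes had a median log2 difference of 0.52, with medians of 0.49 in the orchiectomized and 0.53 in the DHT group, and 65 of the 75 were below a 2-fold difference. The lower genes had a median of -0.41, with medians of -0.42 and -0.38 in the same order, and 64 of the 69 were below a 2-fold difference. DHT brought 34 of the 75 higher and 43 of the 69 lower genes nearer to control. A shared gene can still lie much nearer to control with DHT, as *Lrrc39* did, at -0.77 without and -0.33 with it. It can also owe most of its difference to the DHT group, as *Ndp* did, at 0.60 without and 1.57 with DHT. The difference between DHT-treated and untreated mice itself passed an unadjusted P value under 0.01 for 7 of the higher genes and 1 of the lower genes. With the stricter definition that each group alone differs from control at an unadjusted P value under 0.05, 44 higher and 50 lower genes were shared.

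**Figure D1:**
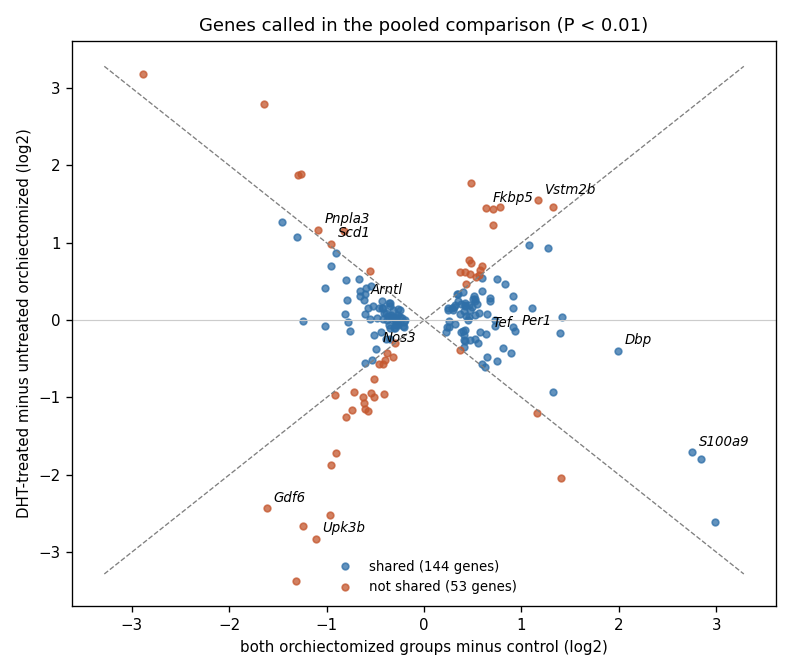
The 197 genes called in the pooled comparison, with the log2 difference of both orchiectomized groups from control on the horizontal axis and the log2 difference of DHT-treated from untreated orchiectomized mice on the vertical axis. Blue points are the 144 shared genes, which lie between the dashed lines on the left and right, and red points are the 53 genes that are not shared.

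The 4 shared genes with the smallest P values, *Dbp*, *Arntl*, *Tef* and *Per1*, were clock genes. Among 14 repressor and output genes of the clock, 8 rose in the orchiectomized groups and 0 fell, where 0.673% of all genes tested rose and 0.722% fell, with a median log2 difference of 0.52, against a median of 0.02 over all genes tested. Among 7 genes of the activating arm and its regulators, 2 fell and 0 rose, with a median of -0.42. The called genes were *Dbp*, *Tef*, *Per1*, *Per3*, *Nr1d2*, *Cys1*, *Ciart* and *Nr1d1*, which were higher, and *Arntl* and *Cry1*, which were lower, and all 10 were shared. *Cry1* is a repressor whose peak lies close to that of *Arntl*, and it was listed with the activating arm. The number of called repressor and output genes ran from 4 (without control replicate 3) to 10 when single libraries were left out, and that of activating genes from 1 (without control replicate 2) to 4.

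Of these genes, 5 carry a clock element in the 250 bases before the RefSeq start site, and these stretches are shown for the 4 that rose and for *Cry1*, which fell. The sequences are from RefSeq (GRCm38.p6, the build mm10) and run in the direction of transcription, with the element in capitals. The elements searched on both strands were the E-box CACGTG and the D-box TTANGTAA, and the start site lies just after the last base shown.
Per1, chr11:69098699-69098948, plus strand, E-box 166 bases before the start: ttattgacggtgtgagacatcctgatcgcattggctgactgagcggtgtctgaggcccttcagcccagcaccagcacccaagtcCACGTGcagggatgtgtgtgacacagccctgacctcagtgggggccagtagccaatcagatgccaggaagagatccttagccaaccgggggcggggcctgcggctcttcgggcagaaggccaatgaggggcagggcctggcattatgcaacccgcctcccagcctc
Tef, chr15:81802423-81802672, plus strand, E-box 127 bases before the start: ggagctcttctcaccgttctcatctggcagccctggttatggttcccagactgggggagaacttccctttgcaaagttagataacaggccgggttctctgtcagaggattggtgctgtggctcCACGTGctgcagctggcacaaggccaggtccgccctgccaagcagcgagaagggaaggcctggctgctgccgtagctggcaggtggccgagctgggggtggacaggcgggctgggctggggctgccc
Ciart, chr3:95882229-95882478, minus strand, E-boxes 116, 58 and 44 bases before the start: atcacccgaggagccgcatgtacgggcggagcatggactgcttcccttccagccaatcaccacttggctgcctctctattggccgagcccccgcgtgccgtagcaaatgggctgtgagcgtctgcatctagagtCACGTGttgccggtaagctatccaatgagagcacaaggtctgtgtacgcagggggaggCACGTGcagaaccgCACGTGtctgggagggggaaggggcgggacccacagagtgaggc
Per3, chr4:151044666-151044915, minus strand, D-boxes 205 and 158 bases before the start: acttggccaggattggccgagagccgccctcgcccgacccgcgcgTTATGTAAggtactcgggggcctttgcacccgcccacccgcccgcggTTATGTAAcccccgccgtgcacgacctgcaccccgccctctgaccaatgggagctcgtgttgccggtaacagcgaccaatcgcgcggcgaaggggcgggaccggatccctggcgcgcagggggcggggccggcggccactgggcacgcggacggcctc
Cry1, chr10:85185055-85185304, minus strand, E-box 60 bases before the start: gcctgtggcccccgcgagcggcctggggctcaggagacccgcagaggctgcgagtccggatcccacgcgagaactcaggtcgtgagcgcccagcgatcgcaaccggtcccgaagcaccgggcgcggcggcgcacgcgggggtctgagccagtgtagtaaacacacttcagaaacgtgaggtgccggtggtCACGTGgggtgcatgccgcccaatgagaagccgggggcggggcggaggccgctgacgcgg
A second annotated start of *Tef* has an E-box 138 bases before it, and a second start of *Per1* has neither element. Windows of 300 bases around the starts of *Dbp*, *Nr1d1*, *Nr1d2*, *Cys1* and *Arntl* hold neither sequence.

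RefSeq promoters were matched for 61 of the 75 shared higher genes (81.3%), and an E-box was present in 14 of their 80 promoters (17.5%), against 7.15% of all 32851 promoters and 9.60% of the promoters of genes tested. The 14 include promoters of *Per1*, *Tef* and *Ciart* given above, so this share in part restates the clock genes. The D-box was present in 1 of the 80 (1.25%), against 2.32% of all promoters and 1.52% of those of genes tested. The sequence AGAACA, part of the element bound by the glucocorticoid receptor and related steroid receptors, was present in 8 of the 80 (10.0%) against 19.0% of all promoters and 12.6% of those of genes tested, and the estrogen response element in 0 of the 80 against 0.07% and 0.007%. Promoters were matched for 79.2% of all genes tested, so the shares given for these genes rest on an incomplete match too. The shared lower genes were matched for 52 of 69 (75.4%), too few for such a count, so their shares are void and the higher genes were not compared with them. A match is a description of these letters and not a site in use.

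*Dbp*, a transcription factor that drives clock output through D-boxes, had the smallest P value of all genes. It was at 14.1, 6.09, 4.59, 15.5 and 4.66 CPM in control replicates 1 to 5, at 56.2, 28.1, 32.7, 52.3 and 37.3 CPM in the orchiectomized replicates, and at 44.6, 30.0, 31.2, 25.1 and 26.3 CPM in the DHT replicates. Every orchiectomized library, with or without DHT, lay above every control library. The log2 difference was 1.99 (SE 0.32, n = 10 and 5, adjusted P = 0.128 in edgeR), with 2.19 in the orchiectomized and 1.79 in the DHT group. The difference of DHT-treated from untreated mice was -0.39, with a 95% interval from -1.09 to 0.30.

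*Tef*, a related factor of the same family, was between 74.6 and 113 CPM in the control libraries, at 168, 125, 155, 179 and 137 CPM in the orchiectomized libraries, and at 150, 122, 124, 144 and 134 CPM in the DHT libraries. The groups did not overlap, and the log2 difference was 0.63 (SE 0.11). *Per1*, a core repressor, was between 23.0 and 28.1 CPM in the control libraries. It was at 32.4, 49.7, 44.9, 59.5 and 66.5 CPM in the orchiectomized libraries and at 35.7, 36.1, 37.9, 53.8 and 65.6 CPM in the DHT libraries. All 10 orchiectomized libraries again lay above the controls, with a log2 difference of 0.94 (SE 0.18) and a difference of DHT-treated from untreated mice of -0.15 (95% interval -0.56 to 0.27). *Per3*, a further period gene, had a log2 difference of 0.81 (SE 0.17). Its controls reached 12.95 CPM and its lowest orchiectomized library, DHT replicate 3, was at 13.3 CPM, so the groups were separated by little.

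*Arntl*, the activator of the loop, moved the other way. It was at 42.7, 59.2, 45.1, 53.7 and 51.2 CPM in the control libraries, at 25.0, 26.9, 33.0, 28.3 and 37.6 CPM in the orchiectomized libraries, and at 41.4, 37.0, 32.6, 35.6 and 33.4 CPM in the DHT libraries. All 10 orchiectomized libraries lay below all controls, DHT replicate 1 by the smallest margin. The log2 difference was -0.61 (SE 0.10), with -0.74 in the orchiectomized and -0.48 in the DHT group, and the difference between these groups was 0.26 (95% interval -0.01 to 0.52). *Cry1* fell by 0.57 on the log2 scale (SE 0.16), although control replicate 4, at 12.8 CPM, lay among the orchiectomized libraries.

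Of the remaining clock genes, *Nr1d2* and *Nr1d1*, which encode the REV-ERB repressors of *Arntl*, rose by 0.65 (SE 0.17) and 0.52 (SE 0.16) on the log2 scale, and both overlapped with control. For *Nr1d2* the difference was 0.89 in the orchiectomized and 0.41 in the DHT group. *Ciart*, a repressor of ARNTL and CLOCK, rose by 0.92 (SE 0.28) from a low mean level in control, where 3 libraries reached the level of the filter, and *Cys1*, a cilium gene listed here with clock outputs, rose by 0.52 (SE 0.15). Just outside the threshold were *Per2*, with a log2 difference of 0.52 and an unadjusted P value of 0.0101 in edgeR, and *Npas2*, a partner of ARNTL, with -0.42 and 0.0102. *Cry2*, at 0.01 (SE 0.08), *Hlf*, at 0.18 (SE 0.17), and *Bhlhe40*, at -0.40 (SE 0.32), were not called. The call of *Nr1d1* was kept in 6 of the 15 fits that left out 1 library, and that of *Ciart* in 11.

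**Figure D2:**
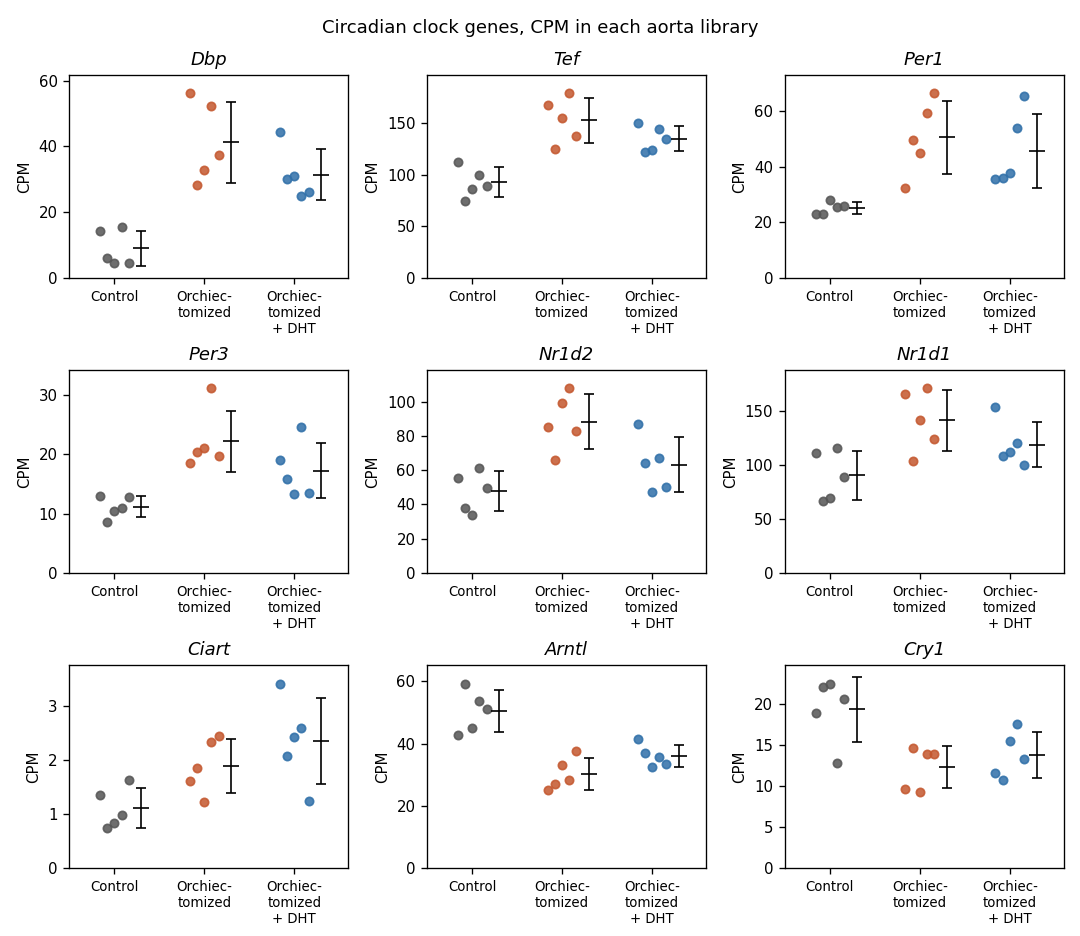
CPM of 9 clock genes in each library, with 5 libraries per group as points and the mean and SD of the group as a black bar beside them. The orchiectomized libraries with and without DHT lie above every control library for Dbp, Tef, Per1 and Per3 and below every control library for Arntl.

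The difference between an output and an activator can be read within each library. *Dbp* and *Arntl* were picked for their calls in opposite directions, so this difference restates those calls and is no further evidence of separation. The log2 CPM of *Dbp* minus that of *Arntl* was -1.58, -3.22, -3.22, -1.77 and -3.38 in the control libraries (mean -2.64, SD 0.88). It was 1.16, 0.06, -0.01, 0.88 and -0.01 in the orchiectomized libraries (mean 0.42, SD 0.56) and 0.11, -0.30, -0.06, -0.50 and -0.34 in the DHT libraries (mean -0.22, SD 0.24). Between the orchiectomized groups, 1 DHT library lay inside the range of the untreated ones and the other 4 below it. The mean of the whole repressor and output list minus that of the activating list ran from -1.54 to -0.68 in control, from -0.17 to 0.40 in orchiectomized and from -0.35 to -0.07 in DHT-treated mice. Control replicates 1 and 4 were the controls nearest to the orchiectomized libraries by both measures.

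**Figure D3:**
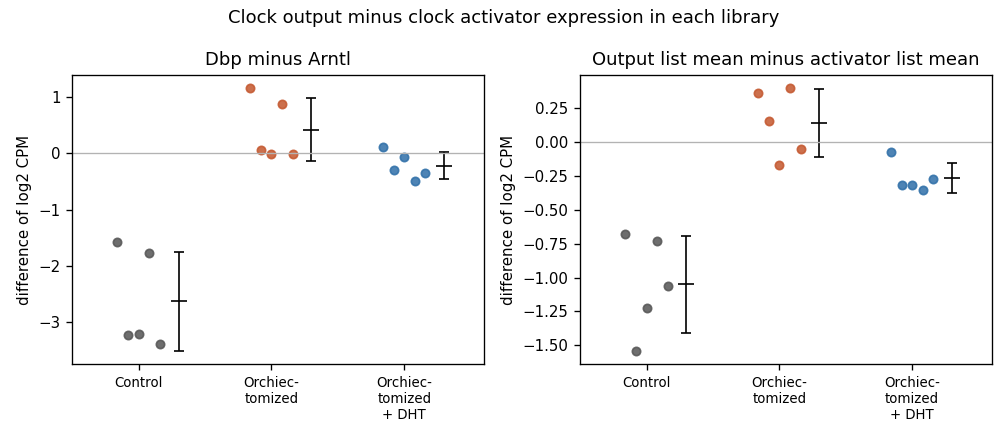
Difference of log2 CPM between Dbp and Arntl (left) and between the mean of 14 repressor and output genes and the mean of 7 activating genes (right) in each library, with the group mean and SD beside the points. The controls lie between -3.38 and -1.58 on the left, and the 10 orchiectomized libraries between -0.50 and 1.16.

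Clock genes also led the genes whose libraries did not overlap. All 10 orchiectomized libraries lay above all 5 controls for 12 genes (0.0850% of genes tested) and below them for 6 genes (0.0425%). The higher genes were *Dbp*, *Tef*, *Per1*, *Per3*, *Trim7*, *Mepce*, *March9*, *Fam221a*, *Armc5*, *Zfp422*, *Satb1* and *B4galt4*, of which the last 2 were not called. The lower genes were *Arntl*, *Naa30*, *Ell2*, *Mmgt1*, *Twf1* and *Pitrm1*, of which the last was not called. Apart from the clock genes, these differences were small, from -0.39 for *Ell2*, an elongation factor of RNA polymerase II, to 0.73 for *Trim7*, a ubiquitin ligase that binds glycogenin, except for *Fam221a*, at 1.39 from a mean of 0.69 CPM in control, which reached the level of the filter in 0 controls and was tested only through the orchiectomized libraries. Without control replicate 4 the groups did not overlap for 55 genes, and without DHT replicate 4 for 40.

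Genes of cholesterol synthesis were also among the shared lower genes. Of 19 tested genes of synthesis and uptake, 4 fell and 0 rose, where 0.722% of all genes tested fell. All 19 had a log2 difference below 0, as did 46.3% of all genes tested, and the median was -0.34, with -0.47 in the orchiectomized and -0.23 in the DHT group. The 4 called genes were all shared. *Sc5d*, which makes 7-dehydrocholesterol, was at 76.1, 62.0, 103, 58.3 and 73.8 CPM in the control libraries, at 41.8, 35.1, 35.1, 50.7 and 49.2 CPM in the orchiectomized libraries, and at 45.8, 44.8, 57.3, 69.5 and 46.1 CPM in the DHT libraries. The untreated orchiectomized libraries lay below all controls, and among the DHT libraries only replicate 4 was inside the control range. Its log2 difference was -0.66 (SE 0.15), with -0.82 and -0.50 in the orchiectomized and DHT groups.

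*Hmgcs1*, the synthase that supplies HMG-CoA, fell by 0.61 on the log2 scale (SE 0.15), and 3 DHT libraries, between 229 and 252 CPM, lay inside the control range of 200.2 to 335 CPM. *Idi1*, the isomerase of isoprenoid synthesis, fell by 0.76 (SE 0.21), and *Cyp51*, the lanosterol demethylase, by 0.46 (SE 0.14). Both calls held in 14 of the 15 fits that left out 1 library, and that of *Cyp51* in 6 of 8 other settings. *Idi1* was lower with DHT (16.5 ± 4.82 CPM, SD, n = 5) than without (18.2 ± 6.76), a difference well inside the spread. *Srebf2*, the factor that controls the pathway, at -0.06 (SE 0.11), was not called. The number of called cholesterol genes ran from 3 (without control replicate 2) to 8 (without orchiectomized replicate 5), and 7 were called by DESeq2.

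Fatty acid synthesis shared the direction but not the pattern. All 14 tested genes had a log2 difference below 0 (46.3% over all genes), with a median of -0.74, but the medians were -1.25 in the orchiectomized and -0.17 in the DHT group. *Scd1*, the stearoyl-CoA desaturase, was the called gene of this list (-0.96, SE 0.28), and it was not shared, since DHT-treated exceeded untreated mice by 0.98 (95% interval 0.28 to 1.69). The mean log2 CPM of 11 white adipocyte markers ran from 7.52 to 8.91 in control, from 7.47 to 8.44 in orchiectomized and up to 8.47 in DHT-treated mice. The median log2 differences of these markers were -0.45 in the orchiectomized and -0.09 in the DHT group. Those of 9 brown fat genes were -0.43 and -0.16. The part of the fat around the aorta in the lipid genes was not tested.

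**Figure D4:**
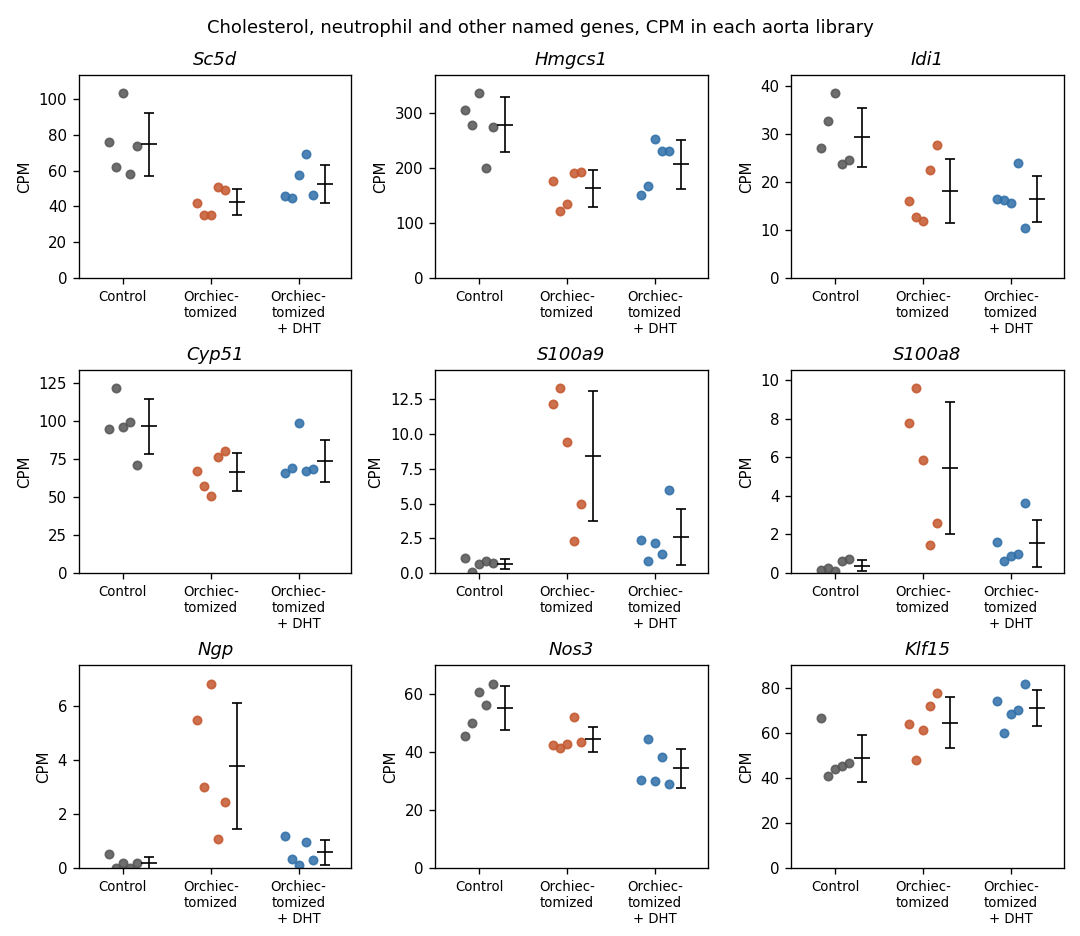
CPM of 4 cholesterol genes, 3 neutrophil genes, Nos3 and Klf15 in each library, with 5 libraries per group as points and the group mean and SD beside them. S100a9 averages 0.677 CPM in control, 8.44 CPM in orchiectomized and 2.57 CPM in DHT-treated mice, while Sc5d averages 74.7, 42.4 and 52.7 CPM.

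Of the 6 tested genes of neutrophils, 3 were low in control and called higher in the pooled comparison. *S100a9* and *S100a8*, the subunits of calprotectin, and *Ngp*, a granule protein, rose by 2.75 (SE 0.57), 2.84 (SE 0.61) and 2.98 (SE 0.75) on the log2 scale. *S100a9* was at 1.09, 0.0937, 0.626, 0.850 and 0.730 CPM in the control libraries, at 12.2, 13.3, 9.44, 2.34 and 4.97 CPM in the orchiectomized libraries, and at 2.39, 0.901, 2.18, 1.36 and 6.00 CPM in the DHT libraries. DHT replicate 2 lay inside the control range. For *Ngp*, DHT replicates 2, 3 and 5, at 0.360, 0.128 and 0.310 CPM, lay inside the control range of 0 to 0.543 CPM. All 3 genes were lower with DHT than without, *S100a9* with a log2 difference of -1.71 (95% interval -2.91 to -0.51), and the DHT group differed from control by 1.89 for this gene.

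The counts behind these values were small, between 1 and 12 for *S100a9* in control and between 10 and 58 with DHT, and *Ngp* was at 0 in 2 controls. When at least 10 counts were required in every library, none of the 3 was tested. Of the 13 listed neutrophil genes 6 passed the filter and 3 were called higher, where 0.673% of all genes tested were. All 3 passed only through the orchiectomized libraries, since *S100a9* reached the level of the filter in 1 control and *S100a8* and *Ngp* in 0, so genes of this kind had to be higher there to be tested. The other tested genes, *Ltf*, *Lcn2* and *Csf3r*, were not called. With DHT, *Csf3r* was at 0.770 to 2.48 CPM, against 1.36 to 2.27 CPM in control. *Ltf* was at 0.360 to 0.987 CPM with DHT against 0.0708 to 1.12 CPM, and *Lcn2* at 1.45 to 10.1 against 2.29 to 2.72 CPM. The mean log2 CPM of the 6 genes ran from -0.19 to 0.24 in control, from 1.23 to 4.41 in orchiectomized and from 0.20 to 1.42 in DHT-treated mice. The highest of these was orchiectomized replicate 2, which held the listed genes *Ltf* at 1116 CPM and *Lcn2* at 41.3 CPM, and the other orchiectomized libraries reached 2.48. This library also stood apart in epithelial genes. It held the keratins *Krt8* at 277.5 CPM, *Krt19* at 208.9 CPM and *Krt18* at 190.3 CPM, and the sodium channel subunit *Scnn1a* at 96.9 CPM, against at most 6.99, 10.5, 20.45 and 2.69 CPM in the other 14 libraries. *Ltf* and *Lcn2* are also made by epithelia, and the part of epithelial tissue in its level was not tested. Without this library the log2 differences of *S100a9*, *S100a8* and *Ngp* were 2.62, 2.67 and 3.01. The defining markers *Camp* and *Ly6g* did not pass the filter. The mean log2 CPM of 9 T cell genes ran from -0.05 to 1.05 in control, from 0.44 to 3.17 in orchiectomized and from -0.25 to 0.24 in DHT-treated mice, and the part of blood or lymphoid cells in the neutrophil values was not tested. Among the T cell genes *Cd3g*, a subunit of the T cell receptor complex, was called (1.41, SE 0.46) and was not shared, with 2.43 in the orchiectomized and 0.39 in the DHT group. It reached the level of the filter in 2 controls and 3 DHT libraries, against all 5 untreated ones, and its call held in 3 of the 15 fits that left out 1 library.

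Of 16 tested targets of the corticosteroid receptors, 4 rose and 1 fell, where 0.673% and 0.722% of all genes did. The median log2 difference was 0.34, with 0.06 in the orchiectomized and 0.48 in the DHT group. All mice received aldosterone, which activates the mineralocorticoid receptor. *Per1*, also a target of these receptors, is counted here as well as among the clock genes. *Klf15*, a transcription factor of metabolism and vascular smooth muscle, rose by 0.48 (SE 0.13) and *Tsc22d3*, which encodes the anti-inflammatory protein GILZ, by 0.58 (SE 0.19), and both were shared. *Klf15* was at 66.5, 40.7, 43.9, 45.4 and 46.6 CPM in the control libraries, at 63.8, 47.9, 61.3, 71.6 and 77.7 CPM in the orchiectomized libraries and at 74.1, 59.7, 68.5, 70.1 and 81.7 CPM in the DHT libraries. Control replicate 1 alone lay among the orchiectomized libraries. *Fkbp5*, a co-chaperone of steroid receptors, was called at 0.63 (SE 0.21) through the DHT group alone, with -0.09 in the orchiectomized and 1.35 in the DHT group. *Hsd11b1*, which regenerates active glucocorticoid, was lower (-0.55, SE 0.18), mostly in the untreated group (-0.87 against -0.23). The calls of *Tsc22d3*, *Fkbp5* and *Hsd11b1* each held in 5 of the 15 fits that left out 1 library. *Sgk1*, at 0.28 (SE 0.13), and *Nr3c2*, the mineralocorticoid receptor, at -0.02 (SE 0.13), were not called.

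In the vessel wall, *Nos3*, the nitric oxide synthase of the endothelium, was lower in both groups. It was at 45.5, 50.01, 60.8, 56.4 and 63.6 CPM in the control libraries, at 42.4, 41.6, 42.8, 52.0 and 43.6 CPM in the orchiectomized libraries, and at 30.4, 44.5, 30.0, 38.5 and 29.1 CPM in the DHT libraries. Only orchiectomized replicate 4 was inside the control range. The log2 difference was -0.50 (SE 0.11), with -0.31 without DHT and -0.68 with DHT, and the difference between these groups was -0.37 (95% interval -0.65 to -0.09). *Nos3* was 1 call among 13 endothelial genes, where 1.40% of all genes tested were called, and *Cdh5*, an endothelial cadherin, at -0.06 (SE 0.21), and *Pecam1*, at -0.21 (SE 0.11), were not called. *Vwf* (von Willebrand factor) and *Tek* (the angiopoietin receptor) were not called either, with log2 differences of 0.07 and 0.13 without DHT and of -0.75 and -0.76 with DHT. The mean log2 CPM of the endothelial list ran from 6.18 to 6.72 in control, 6.18 to 6.85 in orchiectomized and 5.92 to 6.42 in DHT-treated mice.

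*Gja1*, which encodes connexin 43, the gap junction protein of smooth muscle and fibroblasts, fell by 0.42 (SE 0.10) from 309 ± 43.8 CPM in control to 220 ± 20.4 CPM in orchiectomized and 244 ± 33.3 CPM in DHT-treated mice (SD, n = 5 each). Other structural genes were called through 1 group. *Loxl2*, a lysyl oxidase, was the 1 called gene among 18 elastic fiber genes (-0.38, SE 0.12), and *Col12a1* (-0.61, SE 0.17) and *Col8a1* (-0.51, SE 0.15) were called among 16 collagen genes, where 0.722% of all genes fell. None of these 3 was shared, and for *Col12a1* the log2 difference was -0.03 without and -1.19 with DHT. Of 9 tested mesothelial markers 2 were called lower, *Upk3b* and *Lrrn4*, and 3 had a pooled difference above 0. *Upk3b* and *Lrrn4* were not shared either, at 0.30 and 0.29 without DHT and at -2.53 and -2.22 with DHT. The list had medians of 0.86 without and -2.22 with DHT. *Pi16*, 1 call among 12 markers of adventitial fibroblasts, was lower (-0.39, SE 0.13), with -0.27 without and -0.51 with DHT, where the list had medians of 0.17 and -0.43. It was a call kept in 6 of the 15 fits that left out 1 library. Among 16 contractile smooth muscle genes and 14 metalloproteinases and their inhibitors 0 were called, with medians of 0.19 and -0.11. With 1.40% of all genes tested called, 0 calls in lists of this size do not set these genes apart.

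Of 18 tested genes of the serine, one-carbon and ATF4 list, 3 rose and 0 fell, where 0.673% and 0.722% of all genes did. The median log2 difference of the list was 0.00, and 9 of the 18 genes were above 0. *Mthfd1l*, the mitochondrial synthetase that releases formate, rose by 0.62 (SE 0.16) and *Pck2*, the mitochondrial form of phosphoenolpyruvate carboxykinase, by 0.38 (SE 0.12), and both were shared. The call of *Mthfd1l* held in all 15 fits that left out 1 library and that of *Pck2* in 9. *Mthfd2*, the mitochondrial dehydrogenase of the same pathway, was called and not shared, with -0.40 without and 1.37 with DHT. *Lep*, which encodes leptin (-1.31, SE 0.42), was called and shared among 11 white adipocyte genes. *Dio2*, the deiodinase that activates thyroid hormone (-0.92, SE 0.24), was called among 9 brown fat genes and was not shared. The call of *Lep* held in 8 of the 15 fits that left out 1 library, and without control replicate 5, its highest library, the difference was -0.83 with an unadjusted P value of 0.0602 in edgeR.

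None of 10 tested genes of the androgen list, 12 of estrogen reception and response, or 12 of the gonadotropin, inhibin and activin axis passed the threshold, with medians of 0.10, 0.05 and -0.04. With 1.40% of all genes tested called, 0 calls in lists of this size is near the background and is no result about these genes. *Esr1*, the estrogen receptor alpha, differed by 0.26 (SE 0.17). Nearest to the threshold were *Hsd17b12*, at -0.54 with an unadjusted P value of 0.0310 in edgeR, and *Hsd17b4*, at -0.38 with 0.0349, both enzymes that also act in fatty acid metabolism. In all, 17 of the 32 lists had 0 calls. The 16 of these with at least 2 tested genes held 190 tested genes, and their medians ran from -0.64 (skeletal muscle) to 1.48 (B cell).

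**Figure D5:**
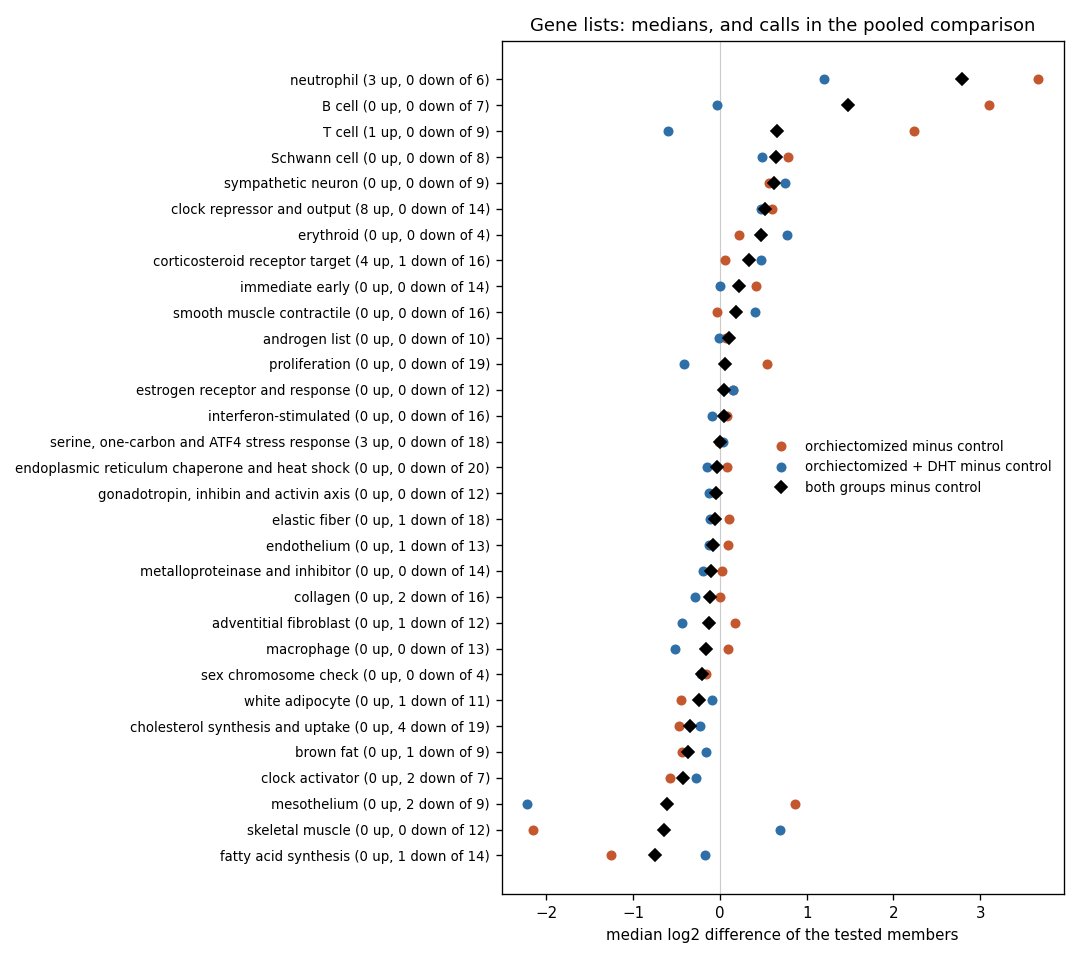
Median log2 difference from control of the tested members of each gene list with at least 4 tested genes, for the orchiectomized group (red), the DHT group (blue) and both with equal weight (black diamonds), with the number of called genes beside each name. Red and blue points lie on the same side of 0 for the clock and cholesterol lists, at -0.47 and -0.23 for cholesterol. They are closer to each other for several other lists, such as the estrogen list (0.15 for both). They lie far apart for the T cell, B cell, mesothelium and skeletal muscle lists.

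Among the other leading shared higher genes, *Pik3ip1*, an inhibitor of phosphoinositide 3-kinase, rose by 0.73 (SE 0.14) with nearly equal differences in both groups (0.77 and 0.69). *Cbs*, the enzyme that opens the transsulfuration pathway, rose by 0.91 (SE 0.22) and likewise differed little between them (0.95 and 0.87, 95% interval of the difference -0.60 to 0.43). *Ppp1r3f*, a subunit that directs protein phosphatase to glycogen, rose by 0.54 (SE 0.12) and *Tsc22d1*, a transcription factor induced by TGF-β, by 0.49 (SE 0.12). For *Ndp*, which encodes the Wnt receptor ligand norrin, and *Tmem229b* the difference came mostly from the DHT group. *Ndp* differed from control by 0.60 without and 1.57 with DHT, and *Tmem229b* by 0.32 and 0.87. Without DHT neither gene passed the threshold, with unadjusted P values of 0.0651 and 0.0574 in edgeR. The difference of DHT-treated from untreated mice passed it for both, at 0.00491 and 0.00314 in the same fit.

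Among the shared lower genes, *Naa30*, the catalytic subunit of an N-terminal acetyltransferase, had a small difference with little spread (-0.29, SE 0.06). It was between 51.9 and 61.8 CPM in control and between 39.9 and 49.6 CPM in all 10 orchiectomized libraries. *Selenoi*, an enzyme of phosphatidylethanolamine synthesis (-0.31, SE 0.07), and *Eif1a*, a translation initiation factor (-0.30, SE 0.08), were alike in size. *Dot1l*, the methyltransferase of histone H3 lysine 79, fell by 0.43 (SE 0.11), *Shroom1*, an actin-binding protein, by 0.79 (SE 0.21) and *Ide*, the insulin-degrading enzyme, by 0.51 (SE 0.14). *Lrrc39*, a protein of the muscle M-band, fell by 0.55 (SE 0.12), with -0.77 without and -0.33 with DHT, and the difference between these groups was 0.44 (95% interval 0.14 to 0.74). The call of *Ide* was lost without control replicate 1, at an unadjusted P value of 0.0101.

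The called genes that were not shared were 20 higher and 33 lower genes, and in 17 and 25 of them the DHT group was further from control than the untreated group. The 3 leading higher genes, *Vstm2b*, *Fam107a* and *Vstm4*, differed from control by 0.40, -0.01 and 0.17 without DHT and by 1.95, 1.43 and 0.77 with DHT. *Gdf6*, a bone morphogenetic protein, and *Arsi*, an arylsulfatase, were at -2.83 and -1.89 with DHT and at -0.40 and -0.02 without it. *Pnpla3*, an enzyme of lipid droplets, was the reverse, at -1.68 without and -0.51 with DHT. All of these but *Vstm2b* lost the call when the 10 orchiectomized libraries were fitted as 1 group, a fit in which the difference between the orchiectomized groups counts as spread.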

How the data were processed

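Gene expression was measured by RNA-Seq of poly(A)-selected RNA from 15 whole aortas, 5 per group, with group and replicate number taken from the deposited labels. What the authors deposited are unnormalized counts, 1 whole number for each gene symbol. The submitters' processing notes name STAR, Cufflinks, DESeq2 and mm10, without versions or roles, and the counting program and its strand setting are not given in the sources used here. Entries for reads assigned to no gene (6.26% to 14.4% per library) or to several genes (1.34% to 1.97%) were left out.

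The analysis used edgeR 4.0.16 (R 4.3.3) with filterByExpr (minimum count 10, minimum total 15), TMM normalization and 1 quasi-likelihood model of 3 groups fitted to all libraries. The contrast weighted each orchiectomized group mean by 0.5 and was tested two-sided. The biological coefficient of variation was 0.297, and a gene with few counts is measured with correspondingly little precision. Calls used an unadjusted P value under 0.01, and P values were adjusted by Benjamini-Hochberg over the 14121 genes. A prior count of 3 was added for log2 CPM, and each list level is a mean of log2 CPM. Libraries of a group were compared by chi-square, and none were duplicates.

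The comparison, the 32 gene lists and the tests were chosen with earlier results of these data known. The genes named are, in each direction, the 12 shared genes of lowest P value and the 3 that are not shared, and list members where a list is described. Predicted genes are counted and not named, and some genes of the lists are not reported here. Genes whose libraries did not overlap are named because they are few and were chosen after their values were seen, as was *Ltf*. Alternatives were DESeq2 1.42.0, RLE size factors, other filters, 1 orchiectomized group, the replicate number as a block, a robust fit, limma 3.58.1 voom with quality weights, the adjusted threshold, another definition of shared, and leaving out each library. DESeq2 with an adjusted threshold and the alternatives for list counts were added after the data were seen. Promoters were matched by symbol. Figures were drawn with Python 3.11.15.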

Additional observations from a re-analysis of the deposited data

Results flagged for a closer look

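In groups of 5 libraries, the gap between the highest or lowest library and its nearest neighbour was examined for 55 named genes, or 165 groups. It exceeded Dixon's 95% critical value for 9 library values, about as many as the 1 in 20 that chance gives. *Per3* was at 31.1 CPM and *Nos3* at 52.0 CPM in orchiectomized replicate 4. *Dot1l* was at 57.6 CPM, *Mthfd2* at 38.1 CPM and *Pck2* at 42.6 CPM in DHT replicate 4, and *Cyp51* was at 98.6 CPM in DHT replicate 3. *Col12a1* was at 25.2 CPM and *Klf15* at 66.5 CPM in control replicate 1, and *Lep* was at 32.9 CPM in control replicate 5.

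The difference between the orchiectomized groups had an adjusted P value under 0.05 in edgeR for 13 of the 55 genes, so the pooled difference of these genes joins unlike groups. DHT-treated exceeded untreated mice by 1.55 for *Vstm2b*, 1.44 for *Fam107a*, 0.60 for *Vstm4*, 1.44 for *Fkbp5* and 1.77 for *Mthfd2* on the log2 scale. The difference was -2.43 for *Gdf6*, -1.87 for *Arsi*, -1.15 for *Col12a1*, -0.76 for *Col8a1*, -2.83 for *Upk3b*, -2.51 for *Lrrn4*, -2.04 for *Cd3g* and -2.61 for *Ngp*. Of these 13 genes *Ngp* alone met the definition of shared.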

How the results depend on the processing

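Single genes were refitted for 55 called genes, none of which changed direction. Of the 24 leading shared genes, 21 kept the call at an unadjusted P value under 0.01 in the 15 fits without 1 library and the 8 other settings. *Ide* lost it without control replicate 1. *S100a9* and *S100a8* kept it in every fit that tested them, and were not tested with at least 10 counts in every library. DESeq2 called 150 higher and 193 lower genes, 114 and 133 of them shared, with 4 activating clock genes and 7 cholesterol genes. Voom with quality weights called 242 and 316, with 197 and 259 shared. Testing all genes with at least 1 count gave 104 shared lower genes, 4 activating clock genes and 5 neutrophil genes, and at least 10 counts in every library left 0 neutrophil genes. With 10 orchiectomized libraries as 1 group 64 genes were lower, and the stricter definition gave 44 shared higher genes. At an adjusted P value under 0.05 edgeR gave 0 higher, 0 lower and 0 shared genes, and DESeq2 gave 14, 7, and 12 and 6 shared.

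Leaving out 1 library gave 41 to 146 higher genes (fewest without control replicate 5, most without orchiectomized replicate 3) and 56 to 339 lower genes (without control replicates 5 and 4). Shared higher genes ran from 32 to 128 and shared lower genes from 33 (without control replicate 1) to 289. Repressor and output clock genes ran from 4 to 10, activating genes from 1 to 4, cholesterol genes from 3 to 8, and genes whose libraries did not overlap from 18 to 55. The cause was not tested.

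The labels give each group the same replicate numbers, and these do not pair the mice. Same-numbered libraries had correlations of their deviations from the group means between -0.466 and 0.463, over 0.1 in 5 of 15 pairs, and 3 of 15 libraries correlated best with their own number. With the replicate block 61 genes were higher, 48 of them shared, and 2 genes had an adjusted P value under 0.05. Genes near 1 CPM or below, such as the neutrophil genes and *Ciart*, are limited by depth.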
